A study of Mus musculus with 15 samples.

Results

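Cells labelled as chemically induced neurons on day 8 (D8) were compared with primary neurons (PN) across 13002 of the 24346 gene symbols in the deposited table, with 3 libraries in each group. A gene was kept when it reached 1 FPKM (fragments per kilobase of transcript, scaled to the mapped fragments of the library, a level corrected for gene length) in at least 3 of these 6 libraries. Both groups were brain cells of C57BL/6 mice, the induced cells held in vitro, and their total RNA, isolated with a column kit, was read from both ends over 150 bases. The labels name no transgene, mutation or sort, and the chemicals, the region and age of the donor brains and the days the primary neurons spent in culture are not given in the sources used here. The other groups of the series, astrocytes (D0) and induced cells on days 4 and 16 (D4 and D16), are used to place levels. They also enter the fit over all 15 libraries, from which the spread behind each standard error, interval and p-value is estimated. The labels do not say whether the 3 libraries of a group came from separate cultures. The p-values thus measure the spread between libraries within the 5 groups, which may be technical.

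Direct conversion changes one differentiated cell type into another without passing through a stem cell. A neuron is recognised by its cytoskeleton of tubulins and neurofilaments, by the vesicle fusion machinery of its axon terminals, by the receptors it clusters under those terminals and by the ion channels that carry its impulses. Young neurons also make a distinct set of proteins for migration and axon growth, which are reduced as circuits form. Astrocytes arise from the same radial glia as neurons, handle glutamate, potassium and water around synapses, and keep many transcription factors of the progenitor.

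Markers of each cell type were read against the labels. Summed over 6 neuronal markers, D8 libraries held 612 to 714 FPKM and PN libraries 3028 to 4117 FPKM. The vesicle genes Snap25 and Syp stood high in both groups, whereas the neuronal nuclear marker Rbfox3 had 4.17, 3.67 and 3.61 FPKM in D8, against 54.0, 70.3 and 26.1 FPKM in PN. Summed over 6 astrocyte markers, D8 held 83.4 to 102 FPKM and PN 119 to 207 FPKM, but the members disagreed. Slc1a3 (2.4, 3.75 and 1.5 FPKM in D8, against 58.6, 110 and 72.7 FPKM in PN), Slc1a2 and Aqp4 were lower in every D8 library. Gja1 was higher in every D8 library (19.8, 32.9 and 36.6 FPKM, against 10.3, 16.8 and 18.5 FPKM in PN), and Gfap and Aldh1l1 overlapped. In bulk RNA, fewer cells of a type and less RNA per cell cannot be told apart. The 6 microglial markers summed to 3.4 to 4.76 FPKM in D8, most of it Tmem119 (3.73, 3.02 and 4.13 FPKM), and to 4.25 to 7.76 FPKM in PN, most of it Aif1 (3.63, 6.39 and 1.65 FPKM) and C1qa. P2ry12 was at 0 in all D8 libraries and at or near 0 in PN. The 4 endothelial markers summed to 3.9 to 9.97 FPKM in D8, nearly all of it Flt1, and to 0.359 to 0.705 FPKM in PN, and Pecam1, Cdh5 and Cldn5 stayed below 0.5 FPKM in all 6 libraries. Markers of pericytes, smooth muscle and fibroblasts summed to 4.96 to 13.9 FPKM in D8, against 2.82, 1.92 and 37.8 FPKM in PN. PN replicate 3 stood apart in this list through Acta2, a smooth muscle actin, and its profile also correlated more closely with the astrocytes (Pearson r across genes 0.721 to 0.729) than did PN replicates 1 and 2 (0.629 to 0.649). Libraries correlated at 0.977 to 0.987 within D8, at 0.963 to 0.977 within PN and at 0.721 to 0.772 between D8 and PN. The part of other cell types or of PN replicate 3 in the results was not tested, and values without that library are given beside several lists. Depth read from the steps of low values was 0.68 to 1.63 in D8 and 1.64 to 1.96 in PN, both relative to D8 replicate 1, and the absolute depth is unknown.

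**Figure D1:**
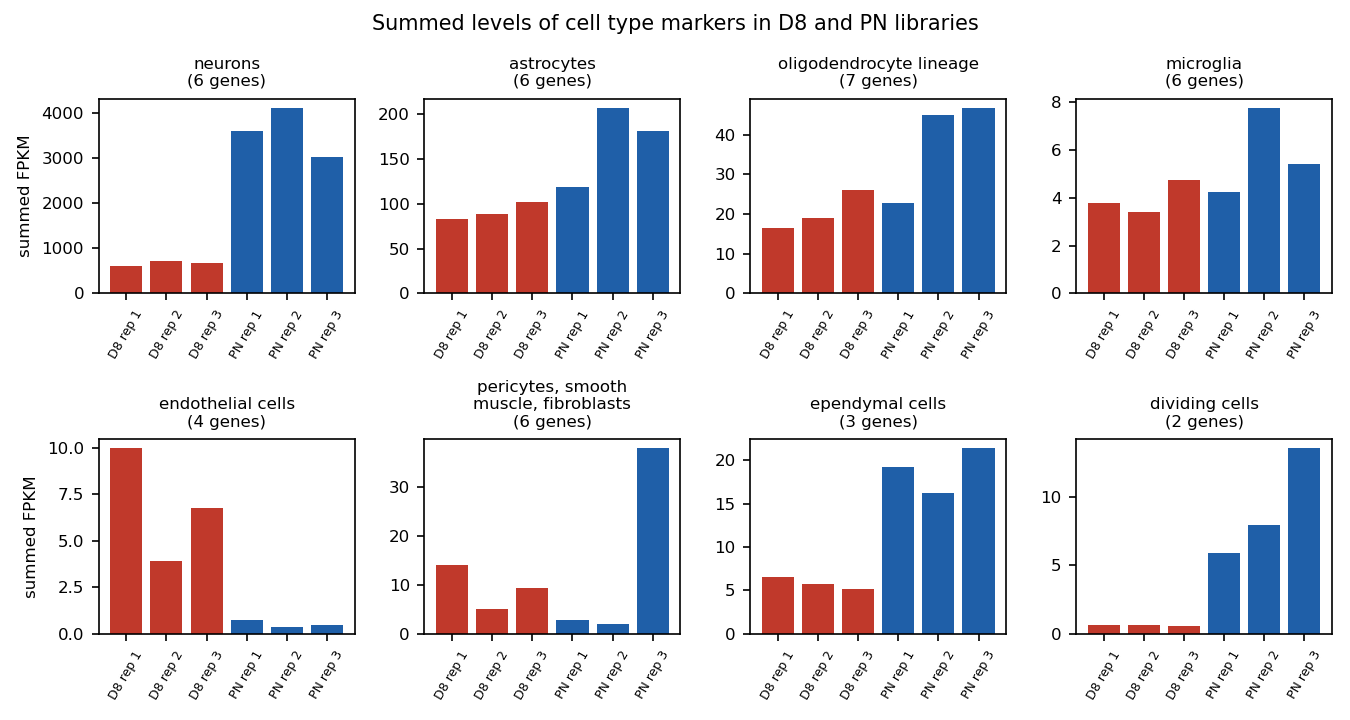
Summed FPKM (vertical axes) of fixed marker genes for 8 cell types in the 3 D8 libraries (red, left) and the 3 PN libraries (blue, right); each bar is 1 library. Neuronal markers sum to 612 to 714 FPKM in D8 and 3028 to 4117 FPKM in PN, and PN replicate 3 alone reaches 37.8 FPKM for pericyte, smooth muscle and fibroblast markers.

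Day 8 cells and primary neurons differed widely in expression. Of 13002 genes, 4941 were called, with 2788 higher in D8 and 2153 lower. A call required an adjusted p below 0.05 in limma's moderated test with Benjamini-Hochberg adjustment and a log2 change of at least 1, and 38.0% of genes met it (21.4% higher, 16.6% lower). For another 5269 genes (40.5%) the 95% interval of the change lay wholly within 2-fold, and 2792 genes (21.5%) were neither called nor held within 2-fold. The values of the groups did not overlap in 68.4% of genes. The log2 changes given here are D8 minus PN on the log2(FPKM + 1) scale, which understates changes of low genes, and errors are standard errors of the fitted change with n = 3 libraries per group. Levels given as mean ± SD in FPKM are likewise over 3 libraries. The median log2 change over all genes was 0.065 and the median standard error 0.199. With libraries rescaled to an equal FPKM total the median became -0.153, and 2299 genes were higher and 2694 lower in D8. The share of calls in the direction of D8 was thus 56.4% as deposited and 46% at an equal total, so the balance between the directions depends on the scale.

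Part of the difference lay in genes present in one group and not in the other. At least 1 FPKM was reached in all D8 and no PN library by 796 genes, and in all PN and no D8 library by 457 genes. Such genes passed the filter through 1 group and had to differ. Among the 10645 genes at 1 FPKM or more in all 6 libraries, 3213 (30.2%) were called, 1662 higher and 1551 lower, and 5000 lay within 2-fold. Of the 2788 genes higher in D8, 964 (34.6%) had a D0 mean above the D8 mean, and 421 (15.1%) had a D0 mean below 1 FPKM. Of the 2153 genes lower in D8, 1189 (55.2%) had a D0 mean above the D8 mean, and 535 (24.8%) had a D0 mean below 1 FPKM.

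**Figure D2:**
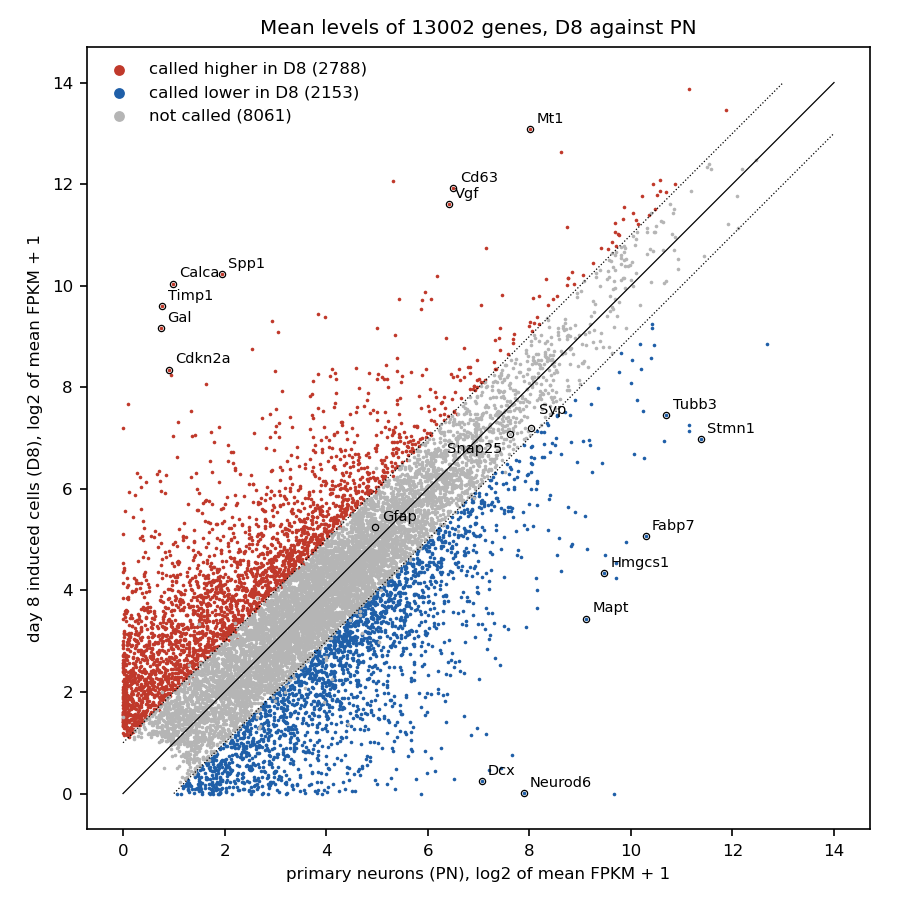
Mean level of each of 13002 genes in D8 (vertical axis) against PN (horizontal axis), both as log2 of the mean FPKM + 1; red points are the 2788 genes called higher in D8, blue the 2153 called lower and grey the rest, with the solid line at equality and dotted lines at a 2-fold difference. Calca, Gal and Timp1 lie far above the equality line, while Neurod6 and Dcx lie near 0 in D8.

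The genes furthest above PN included those of peptides, secreted proteins and growth arrest. The largest difference was in Calca (chr7:114631478-114636357), which encodes calcitonin and the sensory neuropeptide CGRP, with 658, 657 and 1846 FPKM in D8, against 0.132, 0.675 and 2.13 FPKM in PN (log2 change 9.004 ± 0.65, adjusted p = 1.7e-08). D8 replicate 3 held the highest level, and every D8 value was far above every PN value. Calca and its paralog Calcb are close in sequence, so reads may be shared between them. Timp1, a secreted inhibitor of matrix proteases that rises in reactive astrocytes, had 1131, 329 and 859 FPKM in D8, against 0.310, 0.562 and 1.23 FPKM in PN (log2 change 8.69 ± 0.85, adjusted p = 4.2e-07). Gal (chr19:3409915-3414544), the galanin precursor, had 499, 387 and 836 FPKM in D8, against 1.45, 0.205 and 0.346 FPKM in PN (log2 change 8.43 ± 0.56, adjusted p = 7.6e-09). No PN library reached 2 FPKM for either gene.

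Spp1, which encodes the secreted matrix protein osteopontin, had 2520.4, 400.5 and 685 FPKM in D8, against 0.455, 1.56 and 6.57 FPKM in PN (log2 change 8.19 ± 0.84, adjusted p = 6.7e-07). Its level in D8 replicate 1 was several times that of the other D8 libraries, and the groups did not overlap. The cyclin-dependent kinase inhibitor locus Cdkn2a (chr4:89274471-89294653) had 305, 379 and 291 FPKM in D8, against 0.290, 0.724 and 1.60 FPKM in PN (log2 change 7.496 ± 0.30, adjusted p = 6.6e-11). Here the D8 libraries were close to each other and none overlapped PN. Cd40, a tumour necrosis factor receptor best known from immune cells, averaged 203 ± 172 FPKM in D8 and 0.0751 ± 0.130 FPKM in PN (log2 change 7.22 ± 0.47, adjusted p = 5.2e-09), with D8 replicate 2 the highest. Lgals1, a galectin found in many mesenchymal and glial cells, averaged 4268 ± 1939 FPKM in D8 and 38.8 ± 22.3 FPKM in PN (log2 change 6.76 ± 0.40, adjusted p = 2.4e-09) and was already at 3946 ± 1022 FPKM in D0. Smim3, a small membrane protein gene, averaged 266 ± 36.6 FPKM in D8 and 2.09 ± 0.575 FPKM in PN (log2 change 6.44 ± 0.33, adjusted p = 5.9e-10). Cryba2, a crystallin gene, had 51.9, 170.2 and 213 FPKM in D8 and was listed at 0 in all PN libraries (adjusted p = 1.2e-09).

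The genes furthest below PN included several of young forebrain neurons. Neurod6 (chr6:55677822-55681263), a transcription factor of cortical and hippocampal excitatory neurons, had 0, 0.0271 and 0 FPKM in D8, against 270.4, 246 and 191 FPKM in PN (log2 change -7.86 ± 0.15, adjusted p = 1.9e-14). It was at or near 0 in every D8 library and above 190 FPKM in every PN library. Bhlhe22, a transcription factor of upper-layer cortical neurons, had 0.744, 0.525 and 0.839 FPKM in D8, against 174, 213 and 214 FPKM in PN (log2 change -6.88 ± 0.24, adjusted p = 1.2e-11). Dcx (chrX:143855842-143933311), the microtubule protein of migrating neurons, had 0.327, 0.0762 and 0.141 FPKM in D8, against 115, 153 and 129.8 FPKM in PN (log2 change -6.82 ± 0.15, adjusted p = 1.0e-13). No D8 library passed 1 FPKM for Bhlhe22 or Dcx.

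Caly, which encodes a vesicle protein that binds dopamine receptors, averaged 0.424 ± 0.208 FPKM in D8 and 173 ± 35.8 FPKM in PN (log2 change -6.92 ± 0.23, adjusted p = 7.7e-12). The axon growth gene Islr2 averaged 0.370 ± 0.171 FPKM in D8 and 146 ± 60.3 FPKM in PN (log2 change -6.68 ± 0.38, adjusted p = 1.5e-09), and Efnb3, a membrane-bound ligand of Eph receptors, averaged 1.24 ± 0.404 FPKM in D8 and 114 ± 16.4 FPKM in PN (log2 change -5.69 ± 0.27, adjusted p = 2.3e-10). Chl1, an adhesion molecule of growing axons, averaged 1.44 ± 0.324 FPKM in D8 and 124 ± 45.4 FPKM in PN (log2 change -5.62 ± 0.41, adjusted p = 1.7e-08). Mapt (chr11:104231390-104332090), which encodes the axonal microtubule protein tau, had 14.1, 9.20 and 6.41 FPKM in D8, against 623, 506 and 537 FPKM in PN (log2 change -5.73 ± 0.29, adjusted p = 5.5e-10). Unlike Neurod6 and Dcx, Mapt was present in D8, at a small part of its PN level. Sparcl1, an astrocyte-derived protein that promotes synapse formation, averaged 1.26 ± 0.883 FPKM in D8 and 140.1 ± 104 FPKM in PN (log2 change -5.79 ± 0.63, adjusted p = 1.2e-06), and its D0 mean was 116 ± 80.1 FPKM. The adaptor gene Sla was listed at 0 in all D8 libraries and had 61.2, 73.1 and 38.9 FPKM in PN (adjusted p = 6.4e-12).

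**Figure D3:**
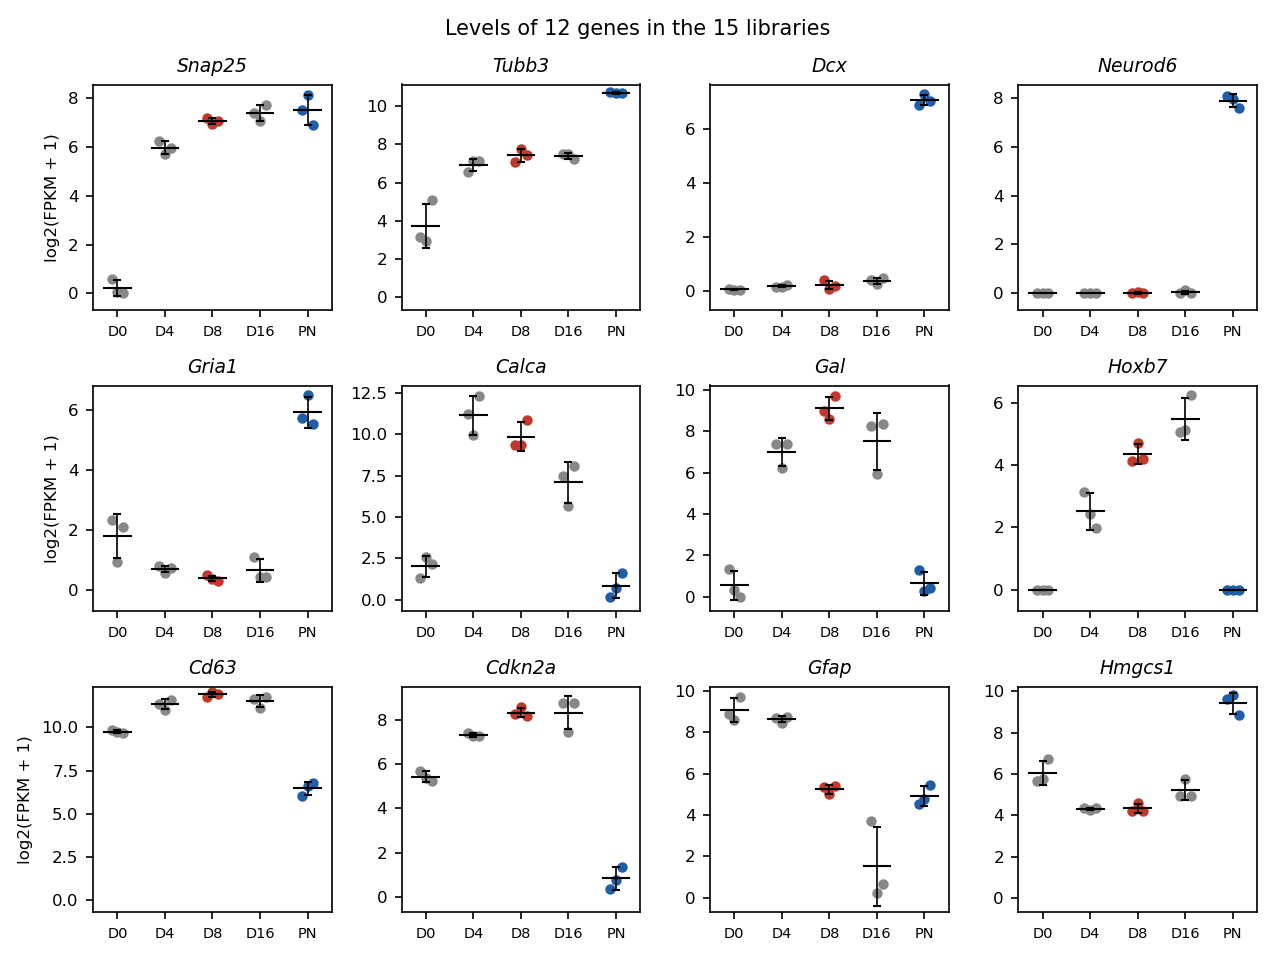
Level of 12 genes as log2(FPKM + 1) (vertical axes) in the 15 libraries of D0, D4, D8, D16 and PN; points are libraries, horizontal lines group means and bars 1 SD, with D8 in red and PN in blue. Snap25 and Gfap overlap between D8 and PN, Dcx, Neurod6 and Gria1 are near 0 in D8, and Calca, Gal, Hoxb7 and Cdkn2a are near 0 in PN.

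Structural genes shared by most neurons were present at day 8 but mostly lower. Of 30 panneuronal genes, 22 were lower in D8, 2 were higher and 6 were not called, with a median log2 change of -1.63, beside 16.6% lower, 21.4% higher and a median of 0.065 over all genes. Tubb3, the neuronal beta-tubulin, had 133, 216 and 174 FPKM in D8, against 1701, 1647 and 1633 FPKM in PN (log2 change -3.27 ± 0.39, adjusted p = 3.5e-06). No D8 library came near PN, though all were above the D0 mean of 15.7 ± 14.6 FPKM. Map2, the dendritic microtubule protein, averaged 24.9 ± 4.12 FPKM in D8 and 216 ± 31.0 FPKM in PN (log2 change -3.07 ± 0.24, adjusted p = 4.2e-08). Stmn2, a regulator of axonal microtubules, averaged 185 ± 20.6 FPKM in D8 and 1205 ± 321 FPKM in PN (log2 change -2.67 ± 0.20, adjusted p = 2.3e-08), and its D0 mean of 304 ± 50.2 FPKM was above that of D8. The endosomal gene Nsg2 (log2 change -4.95 ± 0.49, adjusted p = 5.0e-07) and the reticulon gene Rtn1 (log2 change -3.35 ± 0.26, adjusted p = 2.9e-08) were also lower. The 2 higher members were Eno2, the neuronal enolase, with 211, 247 and 285 FPKM in the D8 libraries and 85.2, 75.6 and 34.1 FPKM in the PN libraries (log2 change 2.01 ± 0.27, adjusted p = 9.8e-06), and Nefh, the heavy neurofilament subunit, with 10.02, 9.21 and 12.1 FPKM in the D8 libraries and 2.70, 3.67 and 1.22 FPKM in the PN libraries (log2 change 1.75 ± 0.23, adjusted p = 7.2e-06). The medium neurofilament gene Nefm held within 2-fold at 22.8 ± 2.61 FPKM in D8 and 21.7 ± 8.75 FPKM in PN (log2 change 0.15, 95% interval -0.56 to 0.86).

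Genes of immature neurons showed the most negative median of all lists with at least 5 tested genes. Of 25, 19 were lower, none was higher and 6 were not called (median -2.93). Besides Dcx, Dpysl3, a mediator of growth cone collapse, averaged 17.9 ± 5.17 FPKM in D8 and 838 ± 162 FPKM in PN (log2 change -5.49 ± 0.26, adjusted p = 2.6e-10). Nrep, a small protein gene of regenerating neurons, averaged 22.1 ± 2.05 FPKM in D8 and 829 ± 84.3 FPKM in PN (log2 change -5.17 ± 0.35, adjusted p = 8.4e-09). Within 2-fold were Sox11, a transcription factor of newborn neurons, at 51.8 ± 8.68 FPKM in D8 and 52.5 ± 11.9 FPKM in PN (log2 change -0.01, 95% interval -0.48 to 0.47), and the doublecortin-like kinase Dclk1 at 115 ± 15.4 FPKM in D8 and 142 ± 25.4 FPKM in PN (log2 change -0.30, 95% interval -0.84 to 0.25). The same list thus held genes near absence and genes at PN level.

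Presynaptic genes were mostly lower, with some near the PN level. Of 38 vesicle and release genes, 26 were lower, 4 higher and 8 not called (median -1.42). Snap25 (chr2:136713453-136782428), a core fusion protein, had 145, 123 and 135 FPKM in D8, against 184, 283 and 118 FPKM in PN and was not called (log2 change -0.45 ± 0.27, adjusted p = 0.155). The PN values spread more than the D8 values, with PN replicate 3 below all 3 D8 libraries. Syp, a vesicle membrane protein, averaged 145 ± 5.87 FPKM in D8 and 259 ± 88.7 FPKM in PN and fell short of the call (log2 change -0.77 ± 0.24, adjusted p = 0.0118). Syngr1 and Syt11, vesicle proteins, held within 2-fold, at 81.5 ± 11.4 FPKM in D8 and 72.3 ± 25.04 FPKM in PN for Syngr1 and 118 ± 8.68 FPKM in D8 and 117 ± 24.6 FPKM in PN for Syt11.

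Relatives within vesicle gene families went opposite ways. Sv2b was at 0.399, 0.369 and 0.316 FPKM in the D8 libraries and 30.6, 31.5 and 8.53 FPKM in the PN libraries (log2 change -3.97 ± 0.33, adjusted p = 7.6e-08), whereas Sv2c was at 6.47, 10.1 and 16.02 FPKM in the D8 libraries and 5.07, 2.25 and 1.58 FPKM in the PN libraries (log2 change 1.60 ± 0.44, adjusted p = 0.00505). Both encode vesicle glycoproteins of the same family. Among the calcium sensors of release, Syt5 was lower, with 8.44 ± 0.594 FPKM in D8 and 139.5 ± 29.1 FPKM in PN (log2 change -3.88 ± 0.22, adjusted p = 1.6e-09), and Syt2, the sensor of fast-releasing terminals, was higher, with 4.30 ± 1.91 FPKM in D8 and 0.267 ± 0.138 FPKM in PN (log2 change 2.01 ± 0.27, adjusted p = 9.6e-06). The complexin Cplx2, a clamp of fusion, averaged 7.66 ± 1.51 FPKM in D8 and 148 ± 47.5 FPKM in PN (log2 change -4.08 ± 0.23, adjusted p = 1.5e-09). The active zone gene Rims2 was just past the threshold (log2 change 1.04 ± 0.24, adjusted p = 0.00132), a call lost in 5 of 17 other settings.

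Glutamate receptor and postsynaptic genes were low at day 8. Of 35 genes, 28 were lower, none higher and 7 not called (median -2.04), and 9 of them reached 1 FPKM in PN alone. Gria1 (chr11:57011387-57330244), the AMPA receptor subunit GluA1, had 0.414, 0.289 and 0.247 FPKM in D8, against 52.2, 89.2 and 44.8 FPKM in PN (log2 change -5.52 ± 0.32, adjusted p = 1.8e-09). No D8 library reached 1 FPKM, and the D0 mean of 2.77 ± 1.64 FPKM was itself above D8. Dlg2, a scaffold under the receptors, averaged 0.617 ± 0.218 FPKM in D8 and 66.3 ± 17.6 FPKM in PN (log2 change -5.35 ± 0.24, adjusted p = 1.5e-10). Camk2a, the kinase of synaptic plasticity, averaged 0.226 ± 0.0994 FPKM in D8 and 53.7 ± 32.2 FPKM in PN (log2 change -5.32 ± 0.49, adjusted p = 1.9e-07). The AMPA subunit Gria3 held within 2-fold, at 8.53 ± 1.33 FPKM in D8 and 9.02 ± 3.41 FPKM in PN (log2 change -0.03, 95% interval -0.57 to 0.50), as did the scaffold Homer1, at 12.5 ± 0.964 FPKM in D8 and 19.9 ± 3.27 FPKM in PN (log2 change -0.62, 95% interval -0.997 to -0.24).

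Inhibitory receptor genes were lower or not called. Of 16 tested GABA and glycine receptor genes (2 others of 18 did not pass the filter), 10 were lower and none higher (median -1.14). Gabra5, an alpha subunit of extrasynaptic GABA receptors, averaged 1.67 ± 0.521 FPKM in D8 and 81.6 ± 16.3 FPKM in PN (log2 change -4.95 ± 0.22, adjusted p = 1.4e-10). The glycine receptor Glra2 averaged 0.196 ± 0.0643 FPKM in D8 and 21.0 ± 3.56 FPKM in PN (log2 change -4.19 ± 0.20, adjusted p = 2.7e-10). The metabotropic receptor Gabbr1, at 137 ± 13.1 FPKM in D8 and 109 ± 23.1 FPKM in PN (log2 change 0.35, 95% interval -0.18 to 0.89), and the glycine receptor beta subunit Glrb, at 37.6 ± 0.564 FPKM in D8 and 37.8 ± 9.34 FPKM in PN (log2 change 0.02, 95% interval -0.45 to 0.49), held within 2-fold.

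Ion channels differed gene by gene. Of 22 tested sodium and calcium channel genes, 9 were lower, 2 higher, and 4 within 2-fold (median -0.80). Without PN replicate 3, 12 were lower and 1 higher. Of the 22, 4 reached 1 FPKM in PN alone. Among the 15 at 1 FPKM or more in all 6 libraries, 3 were lower and 1 higher, beside 14.6% lower and 15.6% higher over all such genes. Scn2a1, the sodium channel of young axons, had 0.687, 0.382 and 0.292 FPKM in D8, against 24.4, 36.2 and 14.5 FPKM in PN (log2 change -4.08 ± 0.23, adjusted p = 1.7e-09), and Scn3a, an early sodium channel, averaged 0.116 ± 0.0562 FPKM in D8 and 8.996 ± 2.69 FPKM in PN (log2 change -3.13 ± 0.17, adjusted p = 1.1e-09). No D8 library reached 1 FPKM for either. The calcium channels of transmitter release and of low-voltage firing, Cacna1b at 13.2 ± 4.90 FPKM in D8 and 14.9 ± 4.86 FPKM in PN and Cacna1g at 6.48 ± 2.90 FPKM in D8 and 5.85 ± 2.45 FPKM in PN, held within 2-fold. The L-type channel Cacna1c was lower, at 1.04 ± 0.483 FPKM in D8 and 6.82 ± 0.318 FPKM in PN (log2 change -1.96 ± 0.18, adjusted p = 2.1e-07). The accessory subunit Cacna2d2 was higher (log2 change 1.28 ± 0.25, adjusted p = 4.1e-04) but lost the call without PN replicate 3.

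Of 37 potassium channel genes, 18 were lower, 1 higher and 12 within 2-fold (median -0.93), and 8 of the 37 reached 1 FPKM in PN alone. Among the 19 at 1 FPKM or more in all 6 libraries, 5 were lower and 1 higher. The A-type channel Kcnd2 averaged 0.492 ± 0.208 FPKM in D8 and 16.7 ± 1.32 FPKM in PN (log2 change -3.58 ± 0.17, adjusted p = 2.8e-10), and its partner Kcnip1 averaged 0.404 ± 0.133 FPKM in D8 and 15.6 ± 3.28 FPKM in PN (log2 change -3.55 ± 0.21, adjusted p = 1.9e-09). Kcnj3, a G protein-gated inward rectifier, averaged 0.744 ± 0.300 FPKM in D8 and 12.2 ± 1.02 FPKM in PN (log2 change -2.94 ± 0.18, adjusted p = 2.9e-09). Kcnmb4, an accessory subunit of calcium-activated channels, held within 2-fold at 10.9 ± 1.396 FPKM in D8 and 12.6 ± 2.60 FPKM in PN (log2 change -0.19, 95% interval -0.78 to 0.40). The one higher gene, Kcnn1 (log2 change 1.01 ± 0.25, adjusted p = 0.00218), lost its call in 6 of 17 other settings.

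Of 13 chloride transporter and sodium pump genes, 4 were lower and 2 higher, beside 16.6% lower and 21.4% higher over all genes. The pump regulator Fxyd6 averaged 15.1 ± 3.397 FPKM in D8 and 284 ± 31.2 FPKM in PN (log2 change -4.17 ± 0.34, adjusted p = 6.7e-08). The pump beta subunits parted, with Atp1b1 lower (log2 change -1.91 ± 0.25, adjusted p = 9.4e-06) and Atp1b3 higher (log2 change 1.18 ± 0.13, adjusted p = 1.6e-06), the second call lost at an equal total. The chloride exporter Slc12a7 was higher, at 26.0 ± 7.61 FPKM in D8 and 1.80 ± 0.897 FPKM in PN (log2 change 3.28 ± 0.27, adjusted p = 6.7e-08).

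Genes that organise contacts were mostly lower. Of 33 synaptic organisers and adhesion genes, 21 were lower, 2 higher and 10 not called (median -1.26). Of the 33, 6 reached 1 FPKM in PN alone, which made a lower call likely for those 6. Among the 24 at 1 FPKM or more in all 6 libraries, 14 were lower and none higher. Lrrtm1, a postsynaptic adhesion protein that induces excitatory terminals, averaged 0.406 ± 0.103 FPKM in D8 and 24.0 ± 5.18 FPKM in PN (log2 change -4.13 ± 0.26, adjusted p = 3.7e-09), and its relative Lrrtm2 averaged 0.143 ± 0.0253 FPKM in D8 and 9.68 ± 3.57 FPKM in PN (log2 change -3.17 ± 0.21, adjusted p = 7.5e-09). The secreted synaptic protein gene Lgi1 averaged 0.00699 ± 0.0121 FPKM in D8 and 13.2 ± 3.78 FPKM in PN (log2 change -3.79 ± 0.16, adjusted p = 1.2e-10). The higher members were Cntnap1, an axonal partner of glial contacts, at 7.77 ± 2.14 FPKM in D8 and 0.707 ± 0.336 FPKM in PN (log2 change 2.35 ± 0.22, adjusted p = 2.2e-07), and the secreted organiser Cbln4, at 13.3 ± 6.58 FPKM in D8 and 1.97 ± 1.56 FPKM in PN (log2 change 2.30 ± 0.35, adjusted p = 3.7e-05). Cadm1 (log2 change -0.14, 95% interval -0.54 to 0.26) and Ptprs (log2 change -0.38, 95% interval -0.81 to 0.04), both adhesion receptors, held within 2-fold.

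Of 35 tested axon guidance genes, 16 were lower, 5 higher and 7 within 2-fold (median -0.80). Only 2 were higher without D8 replicate 1, and 3 at an equal total. The semaphorin receptor Nrp2 averaged 4.03 ± 1.90 FPKM in D8 and 36.5 ± 14.8 FPKM in PN (log2 change -2.89 ± 0.48, adjusted p = 8.0e-05), and the Eph receptor Epha5 averaged 2.18 ± 1.05 FPKM in D8 and 23.9 ± 9.94 FPKM in PN (log2 change -2.93 ± 0.31, adjusted p = 9.5e-07). Higher were the netrin receptor Unc5b, at 24.97 ± 5.36 FPKM in D8 and 1.67 ± 0.204 FPKM in PN (log2 change 3.26 ± 0.28, adjusted p = 1.2e-07), and its ligand Ntn1, at 14.1 ± 0.878 FPKM in D8 and 1.89 ± 0.919 FPKM in PN (log2 change 2.43 ± 0.20, adjusted p = 8.3e-08). Sema5a was also higher (log2 change 1.19 ± 0.35, adjusted p = 0.00773), a call that was 1 of those lost without D8 replicate 1. The ephrin Efna3 (log2 change 0.59, 95% interval 0.20 to 0.98) and the semaphorin Sema3c (log2 change -0.12, 95% interval -0.99 to 0.74) held within 2-fold.

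Regulators of neuronal splicing were split. Of 18, 8 were lower, 2 higher and 5 within 2-fold (median -0.70). Rbfox3 (log2 change -3.30 ± 0.26, adjusted p = 4.8e-08) and its relative Rbfox1, at 1.97 ± 0.595 FPKM in D8 and 43.3 ± 12.9 FPKM in PN (log2 change -3.88 ± 0.22, adjusted p = 1.4e-09), were lower, as was Celf2 (log2 change -2.71 ± 0.16, adjusted p = 2.3e-09). The higher members were Ptbp1 and Ptbp3. Ptbp1, which represses neuronal exons in other cells and is low in neurons, had 56.6, 56.6 and 60.1 FPKM in D8, against 14.1, 11.2 and 32.6 FPKM in PN (log2 change 1.68 ± 0.26, adjusted p = 4.3e-05), and PN replicate 3 was the highest PN library. Its relative Ptbp3 was higher by less (log2 change 1.18 ± 0.16, adjusted p = 9.0e-06), a call lost at an equal total. Celf6 (log2 change -0.50, 95% interval -0.84 to -0.15) and the glial splicing factor Qk (log2 change 0.14, 95% interval -0.46 to 0.73) held within 2-fold.

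**Figure D4:**
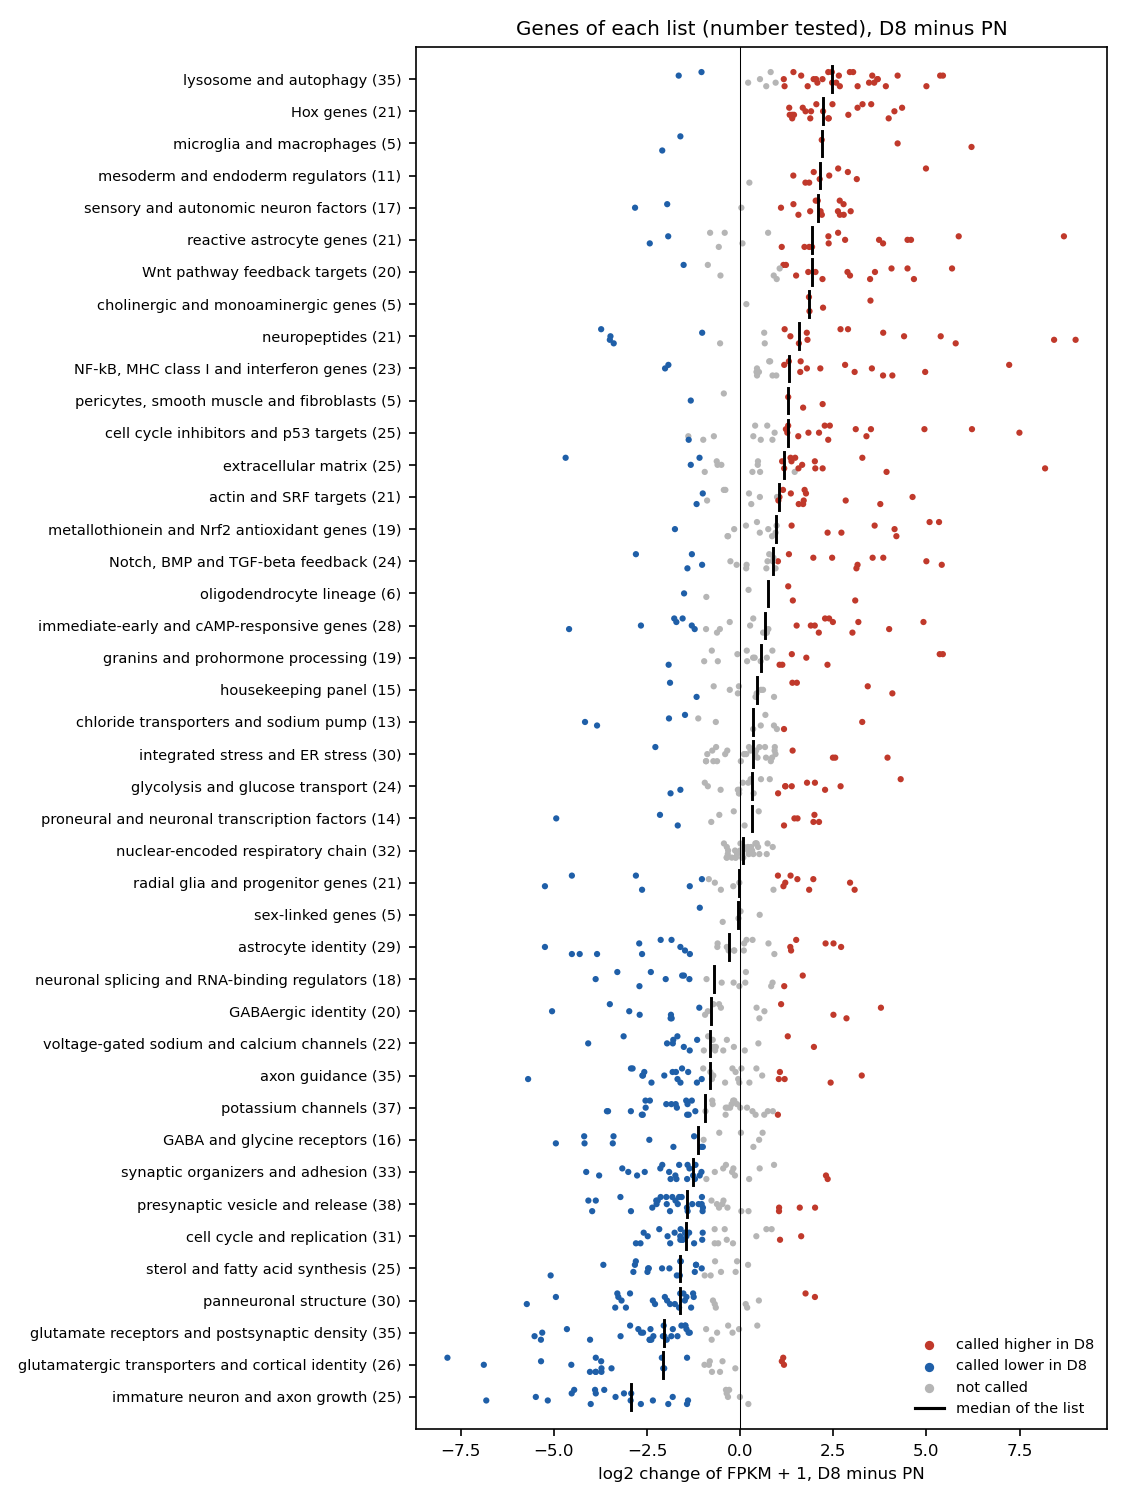
Log2 change of FPKM + 1, D8 minus PN (horizontal axis), of each tested gene (points) in every list with at least 5 tested genes (vertical axis, number tested in brackets), with red for genes called higher in D8, blue for lower and grey for not called; black bars are list medians. Medians run from -2.93 for immature neuron genes to 2.46 for lysosome and autophagy genes, and respiratory chain genes cluster around 0.

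Identity genes of cortical excitatory neurons were low in D8. Of 26 tested glutamatergic and cortical genes, 16 were lower, 3 higher and 7 not called (median -2.08), and 5 reached 1 FPKM in PN alone. Neurod2, a partner of Neurod6 in excitatory neurons, averaged 0.870 ± 0.259 FPKM in D8 and 76.0 ± 17.6 FPKM in PN (log2 change -5.35 ± 0.17, adjusted p = 7.7e-12). The vesicular glutamate transporter Slc17a7, which loads glutamate into vesicles, had 25.4, 14.1 and 19.8 FPKM in D8, against 38.4, 69.1 and 16.3 FPKM in PN and was not called (log2 change -0.84 ± 0.36, adjusted p = 0.0525). PN replicate 3 fell between the D8 libraries, so the groups overlapped. The cortical factors Emx2 (log2 change -0.13, 95% interval -0.83 to 0.57) and Cux1 (log2 change -0.47, 95% interval -0.75 to -0.20) held within 2-fold. The higher members were Pou3f3, Rorb and Eomes. Pou3f3 had 117, 100.1 and 114 FPKM in the D8 libraries and 44.4, 46.8 and 61.3 FPKM in the PN libraries (log2 change 1.12 ± 0.18, adjusted p = 8.1e-05). The calls of Rorb (log2 change 1.16 ± 0.31, adjusted p = 0.00392) and Eomes (log2 change 1.18 ± 0.30, adjusted p = 0.00276) did not hold in every setting, and Eomes values overlapped between groups.

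Inhibitory neuron genes took no common direction. Of 20, 8 were lower, 4 higher and 8 not called (median -0.79). Of the 20, 2 reached 1 FPKM in D8 alone (Pvalb and Gbx2) and 2 in PN alone. The filter made calls in those directions likely. Among the 14 at 1 FPKM or more in all 6 libraries, 2 were higher and 6 lower. Gad1, which makes GABA, averaged 36.9 ± 9.503 FPKM in D8 and 54.4 ± 19.4 FPKM in PN and was not called (log2 change -0.52 ± 0.46, adjusted p = 0.339). The vesicular GABA transporter Slc32a1 averaged 34.7 ± 11.3 FPKM in D8 and 24.4 ± 9.72 FPKM in PN and was not called either (log2 change 0.52 ± 0.42, adjusted p = 0.297). Both genes overlapped between groups.

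The calcium-binding proteins that mark interneuron classes parted. Calb2, which encodes calretinin, had 1.07, 0.659 and 0.630 FPKM in D8, against 46.1, 86.1 and 48.7 FPKM in PN (log2 change -5.05 ± 0.22, adjusted p = 1.4e-10). Pvalb, which encodes parvalbumin, had 11.6, 21.0 and 17.2 FPKM in D8, against 0.0755, 0.686 and 0.0790 FPKM in PN (log2 change 3.78 ± 0.32, adjusted p = 7.4e-08), and Calb1, which encodes calbindin, had 56.5, 72.6 and 54.9 FPKM in D8, against 13.6, 20.5 and 3.12 FPKM in PN (log2 change 2.50 ± 0.40, adjusted p = 6.2e-05). For all 3 genes the groups did not overlap. The forebrain interneuron transcript Dlx6os1 was lower, at 0.219 ± 0.125 FPKM in D8 and 8.64 ± 1.29 FPKM in PN (log2 change -2.98 ± 0.19, adjusted p = 4.6e-09). The homeobox gene Gbx2 was higher, at 6.87 ± 2.17 FPKM in D8 and 0.0577 ± 0.0265 FPKM in PN (log2 change 2.85 ± 0.34, adjusted p = 3.2e-06).

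Few cholinergic or monoaminergic genes could be tested (5 of 16), and 4 of those were higher. Of the 5, 2 reached 1 FPKM in D8 alone, which made a higher call likely. Only 1 was at 1 FPKM or more in all 6 libraries, and it was higher. Slc18a3, the vesicular acetylcholine transporter, averaged 11.1 ± 4.09 FPKM in D8 and 0.0295 ± 0.0511 FPKM in PN (log2 change 3.50 ± 0.31, adjusted p = 1.5e-07). Ache, which breaks acetylcholine down, had 57.0, 26.5 and 46.4 FPKM in D8, against 11.2, 20.1 and 5.17 FPKM in PN (log2 change 1.86 ± 0.41, adjusted p = 8.9e-04). Gch1, which makes the cofactor of monoamine synthesis, averaged 11.6 ± 0.322 FPKM in D8 and 1.90 ± 1.37 FPKM in PN (log2 change 2.22 ± 0.28, adjusted p = 6.4e-06). The monoamine transporter Slc18a2 was low in both groups, at 1.60 ± 0.498 FPKM in D8 and 1.31 ± 0.364 FPKM in PN (log2 change 0.17, 95% interval -0.23 to 0.56).

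Hox genes were detected in D8 and were near absent from PN. These genes, which set position along the hindbrain and spinal cord and are silent in the forebrain, passed the filter in 21 of 39 cases. Each of the 21 passed through D8 alone and was called higher, which the filter made likely, and 11 of them were listed at 0 in every PN library. Hoxb7 (chr11:96286623-96290162) had 16.5, 25.2 and 17.3 FPKM in D8 (adjusted p = 1.4e-08), and Hoxb4 had 14.3, 18.7 and 17.2 FPKM in D8 (adjusted p = 7.9e-11). Both genes were listed at 0 in all PN libraries. Hoxb9, a thoracic and lumbar Hox gene, averaged 15.7 ± 2.24 FPKM in D8 and 0.0520 ± 0.0901 FPKM in PN (log2 change 3.99 ± 0.44, adjusted p = 1.3e-06). In D0 libraries Hoxb7 was listed at 0, and in D16 it averaged 46.8 ± 24.1 FPKM.

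Factors of sensory and autonomic neurons were in large part seen in D8. Of 26 listed genes 17 passed the filter, 12 of them through D8 alone, and 14 were higher and 2 lower. The filter made a higher call likely for those 12. Of the 3 members at 1 FPKM or more in all 6 libraries, none was higher and 2 were lower. Isl2, a factor of motor and sensory neurons, had 6.09, 6.62 and 8.73 FPKM in D8, against 0.210, 0.135 and 0.193 FPKM in PN (log2 change 2.77 ± 0.16, adjusted p = 1.5e-09). Gata2, which acts in midbrain and autonomic neurons and in blood, averaged 7.05 ± 3.90 FPKM in D8 and 0.0687 ± 0.119 FPKM in PN (log2 change 2.78 ± 0.37, adjusted p = 1.1e-05). The neurotrophin receptors of the brain went the other way, with Ntrk2 at 6.67 ± 1.91 FPKM in D8 and 52.1 ± 2.18 FPKM in PN (log2 change -2.82 ± 0.26, adjusted p = 1.7e-07) and Ntrk3 at 3.49 ± 0.777 FPKM in D8 and 16.4 ± 2.49 FPKM in PN (log2 change -1.96 ± 0.18, adjusted p = 2.7e-07). The peripheral filament gene Prph held within 2-fold, at 3.64 ± 1.44 FPKM in D8 and 3.53 ± 1.22 FPKM in PN (log2 change 0.03, 95% interval -0.54 to 0.60).

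Regulators of mesoderm and endoderm were also detected. Of 29 listed, 11 passed, 9 through D8 alone, and 10 were higher. The filter made a higher call likely for those 9, and no member reached 1 FPKM in all 6 libraries. Gata4, a heart and gut factor, had 8.53, 7.41 and 7.77 FPKM in D8, against 0.0152, 0 and 0.0327 FPKM in PN (log2 change 3.13 ± 0.13, adjusted p = 8.3e-11), and Twist1, a mesenchymal factor, had 37.5, 43.1 and 40.5 FPKM in D8, against 0.105, 0.315 and 0.522 FPKM in PN (log2 change 4.99 ± 0.30, adjusted p = 2.3e-09). Twist1 was already at 49.4 ± 26.6 FPKM in D0, whereas Gata4 was at 0.0550 ± 0.0497 FPKM. Msx1 was higher as well (log2 change 2.89 ± 0.40, adjusted p = 1.6e-05), and Twist2 held within 2-fold.

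Neuronal differentiation factors were divided. Of 25 listed genes 14 passed, with 6 higher, 3 lower and 3 within 2-fold. Of the 14, 3 reached 1 FPKM in D8 alone and 1 (Myt1l) in PN alone. The filter made calls in those directions likely. Among the 9 at 1 FPKM or more in all 6 libraries, 3 were higher and 1 lower. Myt1l, which represses non-neuronal genes in neurons, had 0.478, 0.0299 and 0.215 FPKM in D8, against 42.6, 45.7 and 25.2 FPKM in PN (log2 change -4.94 ± 0.21, adjusted p = 9.1e-11). No D8 library reached 0.5 FPKM. Rest, the repressor of neuronal genes in other cells, had 12.1, 6.48 and 8.87 FPKM in D8, against 1.35, 1.08 and 2.30 FPKM in PN (log2 change 1.97 ± 0.28, adjusted p = 1.9e-05), so every D8 library stood above every PN library. Neurod1, a proneural factor, was lower, at 5.38 ± 0.935 FPKM in D8 and 28 ± 8.32 FPKM in PN (log2 change -2.15 ± 0.21, adjusted p = 3.6e-07). Ebf3 (log2 change 1.99 ± 0.18, adjusted p = 1.3e-07) and Btg2, an antiproliferative gene of progenitors that commit to neurons (log2 change 2.12 ± 0.48, adjusted p = 0.00115), were higher. Insm1, at 9.36 ± 2.50 FPKM in D8 and 9.09 ± 4.83 FPKM in PN, and Hes6, at 53.6 ± 8.34 FPKM in D8 and 62.6 ± 20.7 FPKM in PN, held within 2-fold.

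Neuropeptide genes went both ways, with more higher than lower in D8. Of 32 neuropeptide genes 21 passed the filter, 13 were higher in D8, 5 lower and 3 not called (median 1.58). 4 of them reached 1 FPKM in D8 alone and 1 in PN alone. Without PN replicate 3, 10 were higher and 5 lower. Among the 8 genes at 1 FPKM or more in all 6 libraries, 3 were higher and 3 lower. Vip, a peptide of cortical interneurons and autonomic neurons, had 102, 174 and 122 FPKM in D8, against 0.378, 3.44 and 1.17 FPKM in PN (log2 change 5.79 ± 0.69, adjusted p = 3.0e-06). D8 replicate 2 was the highest library, and no PN library reached 4 FPKM.

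The lower members included Cck, Sst and Grp. Cck, the cholecystokinin precursor, had 24.9, 24.5 and 25.2 FPKM in D8, against 288, 589 and 238 FPKM in PN (log2 change -3.73 ± 0.31, adjusted p = 8.2e-08). Sst (chr16:23889573-23890958), somatostatin, had 24.1, 40.5 and 22.5 FPKM in D8, against 982, 154 and 231 FPKM in PN (log2 change -3.50 ± 0.56, adjusted p = 5.5e-05). The 3 D8 libraries agreed within 2-fold, while PN replicate 1 held several times the level of the other PN libraries. Grp, gastrin-releasing peptide, averaged 1.38 ± 0.388 FPKM in D8 and 25.8 ± 6.20 FPKM in PN (log2 change -3.48 ± 0.29, adjusted p = 6.4e-08).

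Among 19 granin and prohormone processing genes, 7 were higher, 1 lower and 11 not called (median 0.55). Vgf (chr5:137026392-137033351), a granule protein induced by neurotrophins, had 3933, 2189 and 3195 FPKM in D8, against 158, 31.2 and 64.8 FPKM in PN (log2 change 5.44 ± 0.47, adjusted p = 1.2e-07). Every D8 library was far above every PN library. Resp18, an endoplasmic reticulum protein of endocrine cells, averaged 149 ± 27.2 FPKM in D8 and 2.71 ± 0.985 FPKM in PN (log2 change 5.36 ± 0.37, adjusted p = 9.6e-09), and the granule membrane gene Ptprn averaged 213 ± 46.0 FPKM in D8 and 41.2 ± 9.69 FPKM in PN (log2 change 2.34 ± 0.27, adjusted p = 2.1e-06). The amidating enzyme Pam (log2 change 0.55, 95% interval 0.12 to 0.98) and Rab27b (log2 change 0.39, 95% interval -0.11 to 0.89), which docks granules, held within 2-fold. Dner, a Notch ligand of neurons, was the lower gene, at 47.1 ± 13.9 FPKM in D8 and 181 ± 51.4 FPKM in PN (log2 change -1.92 ± 0.27, adjusted p = 1.3e-05). At an equal total the counts of this list were 5 higher and 3 lower.

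Promoter sequences of these genes are shown for one motif, the full cAMP response element TGACGTCA, through which the factor CREB acts on Sst. RefSeq windows of 250 bases before to 50 after each gene start (assembly GRCm38.p6) were matched for 19 of the 21 tested peptide genes and 15 of the 19 granule genes. On either strand (the motif reads the same on both), 3 of the 19 and 3 of the 15 windows held it, against 2.03% of all 27025 genes in the table and 3.73% of the 10372 tested genes with a window. Among genes called higher the share was 3.32% and among genes called lower 3.15%. The 4 called genes of both lists that hold it are Sst, Chgb, Ucn and Cartpt, chosen for display after their values were seen. Each line gives the 150 bases before the gene start, 5′ to 3′ on the strand of the gene, with the motif in capitals. The windows are chr16:23890845-23890994 (minus strand), chr2:132781492-132781641 (plus), chr5:31138896-31139045 (minus) and chr13:99900684-99900833 (minus).
Sst: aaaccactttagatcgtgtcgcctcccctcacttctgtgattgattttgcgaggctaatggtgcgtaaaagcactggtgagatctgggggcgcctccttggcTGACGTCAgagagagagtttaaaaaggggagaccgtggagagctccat
Chgb: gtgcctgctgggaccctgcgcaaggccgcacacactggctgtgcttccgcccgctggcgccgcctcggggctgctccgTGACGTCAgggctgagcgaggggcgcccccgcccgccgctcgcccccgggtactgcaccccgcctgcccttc
Ucn: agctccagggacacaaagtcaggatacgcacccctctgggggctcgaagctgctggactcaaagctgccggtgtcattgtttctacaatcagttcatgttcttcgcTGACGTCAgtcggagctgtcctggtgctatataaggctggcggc
Cartpt: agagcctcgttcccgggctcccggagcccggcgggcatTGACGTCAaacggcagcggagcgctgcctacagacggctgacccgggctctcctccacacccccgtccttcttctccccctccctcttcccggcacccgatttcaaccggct
The same motif thus stood before a gene lower in D8 (Sst) and before genes that were higher. Chgb, chromogranin B, averaged 129 FPKM in D8 and 46.4 FPKM in PN. Ucn, urocortin, was listed at 0 in all PN libraries and averaged 5.55 FPKM in D8. Cartpt, the CART peptide precursor, averaged 7.25 FPKM in D8 and 1.88 FPKM in PN. A match in a window is a description and says nothing of whether a factor binds there.

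Astrocyte genes did not separate the groups in one direction. Of 29 tested astrocyte identity genes, 11 were lower in D8, 6 higher and 12 not called (median -0.31). Of the 29, 3 reached 1 FPKM in PN alone (Aqp4 among them), which made a lower call likely for those 3. Among the 23 at 1 FPKM or more in all 6 libraries, 7 were lower and 5 higher. Gfap (chr11:102887336-102900912), the intermediate filament of astrocytes, had 39.2, 31.2 and 40.9 FPKM in D8, against 21.9, 25.9 and 43.1 FPKM in PN and was not called (log2 change 0.33 ± 0.62, adjusted p = 0.658). PN replicate 3 was above all D8 libraries and the groups overlapped, both far below the D0 mean of 559.6 ± 239 FPKM. The glutamate transporter Slc1a3 had 2.40, 3.75 and 1.496 FPKM in D8, against 58.6, 109.7 and 72.7 FPKM in PN (log2 change -4.52 ± 0.39, adjusted p = 1.1e-07), and the water channel Aqp4 had 0.417, 0.509 and 0.637 FPKM in D8, against 3.17, 11.9 and 4.52 FPKM in PN (log2 change -2.13 ± 0.38, adjusted p = 1.5e-04). Both genes were thus higher in every PN library than in any D8 library.

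The lipid-binding gene Fabp7, shared by astrocytes and radial glia, averaged 32.7 ± 16.1 FPKM in D8 and 1249.7 ± 557 FPKM in PN (log2 change -5.24 ± 0.54, adjusted p = 6.6e-07), and the astrocyte membrane gene Mlc1 averaged 0.861 ± 0.437 FPKM in D8 and 38.1 ± 17.2 FPKM in PN (log2 change -4.31 ± 0.46, adjusted p = 9.4e-07). Higher in D8 were Apoe, the lipid carrier of the brain, with 2203, 2824 and 1859.5 FPKM in D8, against 281, 647 and 345 FPKM in PN (log2 change 2.50 ± 0.43, adjusted p = 1.2e-04), and the secreted chaperone Clu, at 435 ± 92.7 FPKM in D8 and 104 ± 77.2 FPKM in PN (log2 change 2.29 ± 0.37, adjusted p = 6.5e-05). The amino acid transporter Slc7a10 was higher too, at 10.3 ± 2.95 FPKM in D8 and 0.760 ± 0.672 FPKM in PN (log2 change 2.71 ± 0.30, adjusted p = 1.6e-06). Glutamine synthetase, Glul, held within 2-fold, at 104 ± 30.5 FPKM in D8 and 96.8 ± 28.7 FPKM in PN (log2 change 0.10, 95% interval -0.61 to 0.80), as did Ndrg2, at 43.1 ± 4.83 FPKM in D8 and 50.6 ± 21.3 FPKM in PN (log2 change -0.16, 95% interval -0.83 to 0.52).

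Genes of reactive astrocytes were mostly higher. Of 21 tested, 14 were higher and 2 lower (median 1.93), the higher ones led by Timp1. Of the 21, 3 reached 1 FPKM in D8 alone, which made a higher call likely for those 3. Among the 10 at 1 FPKM or more in all 6 libraries, 6 were higher and none lower. Lcn2, a secreted lipocalin, averaged 97.6 ± 24.3 FPKM in D8 and 1.08 ± 1.81 FPKM in PN (log2 change 5.87 ± 0.73, adjusted p = 4.7e-06) and had been at 1.35 ± 1.06 FPKM in D0. The small heat shock gene Hspb1 averaged 59.9 ± 5.94 FPKM in D8 and 1.83 ± 1.60 FPKM in PN (log2 change 4.58 ± 0.43, adjusted p = 2.7e-07). The pentraxin Ptx3 (log2 change -2.43 ± 0.46, adjusted p = 2.7e-04) and the receptor S1pr3 (log2 change -1.93 ± 0.39, adjusted p = 4.4e-04) were lower, and Cd109 held within 2-fold, at 2.99 ± 0.230 FPKM in D8 and 3.23 ± 2.43 FPKM in PN. PN replicate 3 was the highest PN library for 16 of the 21 genes, and without it 15 were higher and 2 lower.

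Progenitor genes were split, with 9 of 21 higher and 6 lower. Hopx, a marker of quiescent progenitors, had 308, 279 and 265 FPKM in D8, against 28.2, 56.2 and 22.2 FPKM in PN (log2 change 3.07 ± 0.46, adjusted p = 2.8e-05). Prom1 averaged 37.4 ± 7.65 FPKM in D8 and 5.29 ± 5.58 FPKM in PN (log2 change 2.95 ± 0.44, adjusted p = 3.1e-05) and the Notch effector Hes1 18.8 ± 8.88 FPKM in D8 and 3.96 ± 2.24 FPKM in PN (log2 change 1.96 ± 0.53, adjusted p = 0.00432). Its relative Hes5, the main Notch effector of neural progenitors, was lower, at 0.143 ± 0.168 FPKM in D8 and 6.92 ± 0.598 FPKM in PN (log2 change -2.80 ± 0.22, adjusted p = 3.7e-08). The progenitor factors Sox1 (log2 change -0.52, 95% interval -0.91 to -0.13) and Sox21 (log2 change -0.02, 95% interval -0.76 to 0.72) held within 2-fold.

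Few marker genes of other cell types reached the level for testing. Of 18 oligodendrocyte genes only 6 passed the filter, 1 of them through D8 alone. Ugt8a, a myelin lipid enzyme, averaged 10.9 ± 1.69 FPKM in D8 and 0.404 ± 0.259 FPKM in PN (log2 change 3.09 ± 0.20, adjusted p = 6.6e-09) and Cnp 23.2 ± 2.41 FPKM in D8 and 8.17 ± 1.81 FPKM in PN (log2 change 1.41 ± 0.21, adjusted p = 3.5e-05), whereas Olig1 was lower, at 7.48 ± 3.28 FPKM in D8 and 23.5 ± 10.03 FPKM in PN (log2 change -1.51 ± 0.39, adjusted p = 0.00298). The call of Pdgfra (log2 change 1.29 ± 0.46, adjusted p = 0.023) was lost in 5 of 17 other settings, and its values overlapped, with PN replicate 3 high. Of 17 microglial genes 5 passed, 1 through D8 alone (Tmem119) and 2 through PN alone (Aif1 among them). The filter made calls in those directions likely. Cd68, a lysosomal glycoprotein, averaged 429 ± 231 FPKM in D8 and 4.78 ± 3.33 FPKM in PN (log2 change 6.21 ± 0.51, adjusted p = 5.9e-08), while the more specific Aif1 was lower, at 0.0561 ± 0.0973 FPKM in D8 and 3.89 ± 2.38 FPKM in PN (log2 change -2.09 ± 0.30, adjusted p = 2.1e-05), and so was Tyrobp (log2 change -1.61 ± 0.48, adjusted p = 0.0081). Tmem119 averaged 3.62 ± 0.560 FPKM in D8 and 0.00937 ± 0.0162 FPKM in PN (log2 change 2.19 ± 0.16, adjusted p = 2.4e-08).

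Of 12 endothelial genes 3 passed, with Egfl7 at 107 ± 6.02 FPKM in D8 and 6.89 ± 0.983 FPKM in PN (log2 change 3.79 ± 0.20, adjusted p = 5.8e-10) and the growth factor receptor Flt1 at 6.62 ± 2.97 FPKM in D8 and 0.0612 ± 0.0285 FPKM in PN (log2 change 2.77 ± 0.31, adjusted p = 1.6e-06) higher in D8. Flt1 passed the filter through D8 alone, which made a higher call likely. The junction genes Pecam1 and Cdh5 were near 0 in both groups, and Kdr held within 2-fold. Among 5 of 17 tested genes of pericytes, muscle and fibroblasts, Col1a1 was higher, at 7.26 ± 4.49 FPKM in D8 and 0.664 ± 0.717 FPKM in PN (log2 change 2.21 ± 0.44, adjusted p = 4.2e-04), Cnn1 was higher (log2 change 1.69 ± 0.50, adjusted p = 0.00755) and Dcn lower (log2 change -1.33 ± 0.21, adjusted p = 5.0e-05). Of these 5, 1 passed the filter through PN alone. The ciliated cell factor Foxj1 was lower, at 0.605 ± 0.178 FPKM in D8 and 7.99 ± 6.48 FPKM in PN (log2 change -2.26 ± 0.39, adjusted p = 1.2e-04). Foxj1 also passed through PN alone, which made a lower call likely.

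Cytoskeletal and matrix genes were mixed but mostly higher. Of 21 tested actin and SRF target genes, 12 were higher and 2 lower (median 1.05). Without PN replicate 3, which held the highest PN level in 18 of them, 17 were higher and 1 lower. Tpm2, a tropomyosin of contractile filaments, had 32.0, 29.0 and 31.6 FPKM in D8, against 0.235, 0.0465 and 0.654 FPKM in PN (log2 change 4.63 ± 0.29, adjusted p = 4.3e-09). Tagln2 averaged 191 ± 37.6 FPKM in D8 and 13.3 ± 3.67 FPKM in PN (log2 change 3.76 ± 0.27, adjusted p = 1.3e-08) and the calponin Cnn2 48.5 ± 2.19 FPKM in D8 and 10.8 ± 14.3 FPKM in PN (log2 change 2.83 ± 0.58, adjusted p = 5.5e-04). Actb, the cytoplasmic actin, was lower, at 605 ± 122 FPKM in D8 and 1364 ± 258 FPKM in PN (log2 change -1.17 ± 0.29, adjusted p = 0.00224), and Srf itself was just past the threshold (log2 change -1.005 ± 0.18, adjusted p = 1.8e-04), a call lost without D8 replicate 2 or PN replicate 3. The actin crosslinker Flna held within 2-fold (log2 change 0.30, 95% interval -0.38 to 0.97).

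Of 25 tested matrix genes, 13 were higher and 3 lower (median 1.18). Among the 12 at 1 FPKM or more in all 6 libraries, 5 were higher and none lower. Passing the filter through D8 alone was 1 gene, and through PN alone 3, Igfbp5 among them, which made calls in those directions likely. Without PN replicate 3, which held the highest PN level in 21 of the 25, 16 were higher and 2 lower. The growth factor binding proteins parted, with Igfbp7 at 72.1, 39.9 and 56.9 FPKM in the D8 libraries and 0.729, 3.84 and 4.86 FPKM in the PN libraries (log2 change 3.93 ± 0.41, adjusted p = 8.9e-07) and Igfbp5 at 0.675, 0.658 and 0.681 FPKM in the D8 libraries and 26.4, 33.0 and 84.8 FPKM in the PN libraries (log2 change -4.69 ± 0.53, adjusted p = 1.8e-06). The fibulin Fbln2 was higher but varied within D8, with 66.3, 6.81 and 45.8 FPKM in the D8 libraries and 3.60, 2.01 and 0.943 FPKM in the PN libraries (log2 change 3.28 ± 0.78, adjusted p = 0.00172). The call of Prelp (log2 change -1.09 ± 0.22, adjusted p = 5.4e-04) was lost without PN replicate 3, and the fibrillin Fbn1 held within 2-fold (log2 change 0.33, 95% interval -0.20 to 0.85).

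Cell cycle genes were lower or not called in most cases, and many were tested through PN alone. Of 31 tested cell cycle genes, 20 were lower, 2 higher and 9 not called (median -1.44). 15 of them reached 1 FPKM in PN alone, and 26 had their highest PN level in replicate 3. Without that library 17 were lower. Among the 14 members at 1 FPKM or more in all 6 libraries, 3 were lower and 2 higher. Ccnb1, the mitotic cyclin, had 0.244, 0.225 and 0.419 FPKM in D8, against 5.47, 9.70 and 9.53 FPKM in PN (log2 change -2.80 ± 0.20, adjusted p = 1.5e-08). Ube2c (log2 change -2.68 ± 0.22, adjusted p = 5.2e-08) and Cdc20 (log2 change -2.59 ± 0.28, adjusted p = 1.3e-06), which end mitosis, were lower too. The proliferation marker Mki67 had 0.137, 0.120 and 0.251 FPKM in D8, against 1.07, 1.57 and 2.92 FPKM in PN (log2 change -1.24 ± 0.26, adjusted p = 6.8e-04), a call lost without PN replicate 3. Of the replication genes, Pcna was higher, at 326 ± 161 FPKM in D8 and 97.3 ± 24.5 FPKM in PN (log2 change 1.64 ± 0.42, adjusted p = 0.00289), and Rrm2 (log2 change -0.19, 95% interval -0.62 to 0.23) and Mcm4 (log2 change -0.36, 95% interval -0.75 to 0.03) held within 2-fold. The call of E2f1 as higher (log2 change 1.07 ± 0.20, adjusted p = 2.7e-04) was lost in 4 of 17 other settings.

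Inhibitors of division and targets of p53 were higher in 15 of 25 cases and lower in 1 (median 1.29). Beside Cdkn2a, its neighbour Cdkn2b had 76.6, 67.3 and 91.8 FPKM in D8, against 0.974, 1.07 and 3.11 FPKM in PN (log2 change 4.95 ± 0.30, adjusted p = 2.5e-09). Gadd45a, a stress sensor, had 142, 259 and 153 FPKM in D8, against 0.699, 1.13 and 2.80 FPKM in PN (log2 change 6.22 ± 0.34, adjusted p = 1.0e-09). Both were far above PN in every D8 library. Cdkn2d, an inhibitor found in postmitotic neurons, was the lower gene, at 19.5 ± 3.07 FPKM in D8 and 52.8 ± 10.2 FPKM in PN (log2 change -1.38 ± 0.27, adjusted p = 3.3e-04), and Cdkn2c (log2 change 0.40, 95% interval -0.06 to 0.86) and Sesn1 (log2 change 0.35, 95% interval -0.05 to 0.75) held within 2-fold. Cdkn2a had been at 42.9 ± 7.55 FPKM in D0 and Cdkn2b at 52.3 ± 7.49 FPKM.

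Lysosomal genes had the highest median of all lists with at least 5 tested genes. Of 35, 28 were higher, 2 lower and 5 not called (median 2.46), and at an equal total 26 were higher. Cd63 (chr10:128900989-128912822), a membrane protein of lysosomes and exosomes, had 3474, 4240.1 and 3908 FPKM in D8, against 64.7, 94.8 and 110.2 FPKM in PN (log2 change 5.44 ± 0.23, adjusted p = 1.2e-10). Ctsz, a cathepsin protease, had 300.2, 312 and 339 FPKM in D8, against 4.49, 6.50 and 10.04 FPKM in PN (log2 change 5.37 ± 0.21, adjusted p = 5.5e-11). Gpnmb, a lysosomal glycoprotein, averaged 73.8 ± 14.8 FPKM in D8 and 1.53 ± 1.36 FPKM in PN (log2 change 4.999 ± 0.67, adjusted p = 9.6e-06). For these 3 genes the D8 libraries were close together and far from PN.

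The difference did not cover all parts of the organelle. The proton pump subunits Atp6v1a, at 174 ± 17.5 FPKM in D8 and 149.7 ± 16.9 FPKM in PN (log2 change 0.21, 95% interval -0.13 to 0.55), and Atp6v1h, at 154 ± 40.1 FPKM in D8 and 104 ± 5.02 FPKM in PN (log2 change 0.53, 95% interval 0.19 to 0.88), held within 2-fold. The autophagosome gene Map1lc3a was lower, at 115 ± 19.7 FPKM in D8 and 364 ± 62.4 FPKM in PN (log2 change -1.65 ± 0.22, adjusted p = 9.4e-06). Its relative Gabarapl1 was just past the threshold (log2 change -1.04 ± 0.17, adjusted p = 5.4e-05), a call lost in 3 of 17 other settings.

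Lysosomal promoters were searched for the CLEAR box TCACGTGA, the element bound by the lysosomal regulator TFEB, on either strand. Of 28 lysosomal genes with a RefSeq window (GRCm38.p6), 6 held it (21.4%), against 2.24% of the tested genes with a window and 1.12% of all genes in the table. Among genes called higher in D8 the share was 2.5%, and among genes called lower 1.11%. The 6 were Ctsa, Ctsd, Gla and Mcoln1, all called higher, and the pump subunits Atp6v0d1 and Atp6v1a, which were not called. The 3 called genes with the box within 150 bases before the gene start are shown 5′ to 3′ on the strand of the gene, with the box in capitals. They lie at chr7:142387828-142387977 (minus strand), chr2:164833623-164833772 (plus) and chr8:3500369-3500518 (plus).
Ctsd: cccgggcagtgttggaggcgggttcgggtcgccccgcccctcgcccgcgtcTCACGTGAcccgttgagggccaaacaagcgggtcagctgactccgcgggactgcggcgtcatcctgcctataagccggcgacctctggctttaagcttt
Ctsa: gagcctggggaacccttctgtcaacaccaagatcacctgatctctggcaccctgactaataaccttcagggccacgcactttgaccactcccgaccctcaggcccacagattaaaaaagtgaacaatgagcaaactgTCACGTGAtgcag
Mcoln1: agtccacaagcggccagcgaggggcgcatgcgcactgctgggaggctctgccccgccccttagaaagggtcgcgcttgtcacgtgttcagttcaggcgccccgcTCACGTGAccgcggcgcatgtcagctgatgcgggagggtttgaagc
Ctsd, the main aspartic protease of lysosomes, averaged 1714 FPKM in D8 and 141 FPKM in PN. Ctsa, a protective carboxypeptidase, averaged 128 FPKM in D8 and 14.9 FPKM in PN, and Mcoln1, the calcium channel of the lysosomal membrane, averaged 145 FPKM in D8 and 21.9 FPKM in PN. The box was thus found both before genes that differed and before genes that did not pass the test, and these genes were chosen for display after their values were seen.

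Metal and oxidant defence genes were in part much higher. Of 19, 8 were higher, 1 lower and 4 within 2-fold (median 0.95). Mt1 (chr8:94179082-94180327), a metallothionein that binds zinc and copper, had 5402, 13874 and 6857 FPKM in D8, against 125, 344 and 302 FPKM in PN (log2 change 5.08 ± 0.39, adjusted p = 2.8e-08). Mt2 had 4115, 10044 and 4998 FPKM in D8, against 156, 288 and 742 FPKM in PN (log2 change 4.19 ± 0.48, adjusted p = 2.2e-06). These were among the most abundant transcripts of D8 cells, with replicate 2 the highest, and the groups did not overlap. Gpx3, a secreted peroxidase, averaged 138 ± 47.5 FPKM in D8 and 2.31 ± 0.539 FPKM in PN (log2 change 5.34 ± 0.52, adjusted p = 3.4e-07). The glutathione transferase Gstm1, abundant in astrocytes, was lower (log2 change -1.75 ± 0.36, adjusted p = 5.8e-04). The iron store Fth1 (log2 change -0.33, 95% interval -0.81 to 0.16) and glutathione reductase Gsr (log2 change -0.34, 95% interval -0.75 to 0.06) held within 2-fold.

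Of 23 tested NF-kB, MHC class I and interferon genes, 13 were higher and 2 lower (median 1.31), with 3 passing the filter through D8 alone. PN replicate 3 was the highest PN library for 21 of them, and without it 15 were higher and 2 lower. B2m, the light chain of MHC class I, had 1131, 1464 and 910.0 FPKM in D8, against 50.6, 51.4 and 113 FPKM in PN (log2 change 4.08 ± 0.31, adjusted p = 2.9e-08). The interferon-induced tether Bst2 had 253, 308 and 278 FPKM in D8, against 3.96, 3.79 and 29.1 FPKM in PN (log2 change 4.97 ± 0.52, adjusted p = 8.5e-07). For both genes PN replicate 3 was the highest PN library but stayed far below D8. Vcam1 (log2 change -2.02 ± 0.36, adjusted p = 1.4e-04) and Ifitm3 (log2 change -1.93 ± 0.55, adjusted p = 0.00615) were lower, and the peptide transporter Tap1 (log2 change 0.45, 95% interval -0.02 to 0.92) and Tnfaip3 (log2 change 0.50, 95% interval 0.09 to 0.92) held within 2-fold.

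Of 30 genes of the integrated and endoplasmic reticulum stress responses, 4 were higher, 1 was lower and 25 were not called (median 0.34). These counts moved with the libraries used. Without PN replicate 1, 7 were higher, without PN replicate 2, 5 were lower, and at an equal total 4 were lower. Atf3, a factor induced by injury and stress, had 25.6, 40.7 and 23.8 FPKM in D8, against 1.36, 0.251 and 1.49 FPKM in PN (log2 change 3.96 ± 0.35, adjusted p = 1.2e-07), and Ddit3, which encodes CHOP, had 159, 223 and 159 FPKM in D8, against 30.9, 18.9 and 43.8 FPKM in PN (log2 change 2.55 ± 0.28, adjusted p = 1.4e-06). The chaperone cofactor Sdf2l1 was higher (log2 change 2.49 ± 0.36, adjusted p = 2.0e-05) and the glutathione-degrading gene Chac1 lower (log2 change -2.28 ± 0.44, adjusted p = 3.5e-04). Hsp90b1 (log2 change 0.47, 95% interval 0.15 to 0.78) and Ddit4 (log2 change 0.16, 95% interval -0.53 to 0.86) held within 2-fold.

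Immediate-early genes, which neurons induce within minutes of activity, went both ways. Of 28 tested, 11 were higher, 7 lower and 10 not called (median 0.66). Egr1 had 158, 59.7 and 115 FPKM in D8, against 4.6, 3.39 and 10.2 FPKM in PN (log2 change 3.999 ± 0.36, adjusted p = 1.9e-07). Ier3 averaged 190.2 ± 44.4 FPKM in D8 and 7.04 ± 6.31 FPKM in PN (log2 change 4.92 ± 0.47, adjusted p = 3.1e-07) and the secreted pentraxin Nptx2 63.7 ± 17.6 FPKM in D8 and 8.72 ± 9.59 FPKM in PN (log2 change 3.17 ± 0.48, adjusted p = 3.8e-05). Each was higher in all D8 libraries than in any PN library.

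Some of the genes most tied to neuronal firing were lower. Npas4, induced selectively by calcium entry in neurons, had 0.194, 0.0849 and 0.0408 FPKM in D8, against 7.39, 1.08 and 18.8 FPKM in PN (log2 change -2.67 ± 0.51, adjusted p = 3.2e-04), and the orphan receptor Nr4a3 had 1.09, 0.559 and 1.58 FPKM in D8, against 56.0, 33.3 and 59.6 FPKM in PN (log2 change -4.59 ± 0.28, adjusted p = 2.9e-09). Npas4 was near 0 in all D8 libraries and varied widely among PN libraries. Nr4a1, a relative of Nr4a3, was lower with overlapping values, at 4.23, 1.34 and 2.61 FPKM in the D8 libraries and 13.3, 3.54 and 26.0 FPKM in the PN libraries (log2 change -1.77 ± 0.48, adjusted p = 0.00448). Sik1 (log2 change 0.27, 95% interval -0.30 to 0.83) and Egr4 (log2 change 0.35, 95% interval -0.16 to 0.86) held within 2-fold.

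Feedback targets of Wnt signalling were mostly higher. Of 20 tested, 14 were higher and 1 lower (median 1.92), with 6 passing through D8 alone. Sp5, a direct target of beta-catenin, had 51.6, 66.8 and 76.7 FPKM in D8, against 0.208, 0.117 and 0.501 FPKM in PN (log2 change 5.69 ± 0.44, adjusted p = 3.6e-08), and its D0 mean was 0.566 ± 0.150 FPKM. Notum, an enzyme that inactivates Wnt ligands, had 13.4, 33.2 and 136 FPKM in D8, against 0.407, 0.244 and 1.37 FPKM in PN (log2 change 4.66 ± 0.84, adjusted p = 1.8e-04), with D8 replicate 3 the highest. The hyaluronan receptor Cd44 averaged 92.7 ± 21.2 FPKM in D8 and 3.21 ± 1.24 FPKM in PN (log2 change 4.49 ± 0.24, adjusted p = 7.1e-10). Nkd2, an inhibitor of the pathway, was lower, at 2.07 ± 0.116 FPKM in D8 and 7.90 ± 1.65 FPKM in PN (log2 change -1.52 ± 0.22, adjusted p = 1.8e-05), and the secreted antagonist Sfrp1 held within 2-fold (log2 change -0.53, 95% interval -0.98 to -0.07).

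Of 24 tested Notch, BMP and TGF-beta genes, 10 were higher and 4 lower (median 0.88). Of the 24, 5 reached 1 FPKM in D8 alone and 1 in PN alone. Among the 14 at 1 FPKM or more in all 6 libraries, 5 were higher and 3 lower. Id1, a BMP target that blocks neuronal factors, had 331, 299 and 358 FPKM in D8, against 3.74, 4.50 and 41.0 FPKM in PN (log2 change 4.998 ± 0.61, adjusted p = 4.0e-06), and Id3 had 164, 200 and 221 FPKM in D8, against 4.54, 6.60 and 58.5 FPKM in PN (log2 change 3.84 ± 0.64, adjusted p = 8.0e-05). In both, PN replicate 3 was several times the other PN libraries and still below D8. Tgfb1 averaged 58.0 ± 33.9 FPKM in D8 and 0.184 ± 0.108 FPKM in PN (log2 change 5.41 ± 0.49, adjusted p = 1.8e-07). The Notch target Nrarp (log2 change -1.42 ± 0.27, adjusted p = 2.5e-04) and Id4 (log2 change -1.30 ± 0.25, adjusted p = 3.5e-04) were lower, and Hey1 (log2 change 0.16, 95% interval -0.38 to 0.70) and the ligand Jag2 (log2 change -0.10, 95% interval -0.60 to 0.41) held within 2-fold.

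Sterol synthesis was lower. Of 25 sterol and fatty acid genes, 18 were lower, none higher and 7 not called (median -1.61), and 18 of the calls were made among genes at 1 FPKM or more in all 6 libraries. Hmgcs1 (chr13:119690379-119708260), which makes the substrate of the rate-limiting step, had 17.3, 23.1 and 17.6 FPKM in D8, against 775, 905 and 459.7 FPKM in PN (log2 change -5.09 ± 0.30, adjusted p = 1.9e-09). Fdps, which makes farnesyl diphosphate, had 28.1, 51.1 and 50.5 FPKM in D8, against 564, 634 and 450.1 FPKM in PN (log2 change -3.67 ± 0.35, adjusted p = 3.2e-07). Idi1 averaged 15.7 ± 2.997 FPKM in D8 and 125 ± 43.4 FPKM in PN (log2 change -2.87 ± 0.36, adjusted p = 5.6e-06). PN replicate 3 was the lowest PN library for the 3 genes, and no D8 library came near it. Dhcr7, the last step of the cholesterol pathway, held within 2-fold, at 47.5 ± 4.74 FPKM in D8 and 54.7 ± 24.4 FPKM in PN (log2 change -0.09, 95% interval -0.69 to 0.52), as did Acly, which supplies acetyl-CoA, at 102 ± 8.68 FPKM in D8 and 114 ± 32.8 FPKM in PN (log2 change -0.12, 95% interval -0.59 to 0.35).

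Respiratory chain genes were close to PN. None of 32 nuclear-encoded respiratory chain genes was called in limma's test and 27 held within 2-fold (84.4%, beside 40.5% of all genes). At an unadjusted p under 0.05, and likewise at an adjusted p under 0.05 with no minimum change, 8 of the 32 differed. Atp5b, of the ATP synthase, had 859, 1025 and 1082 FPKM in D8, against 995, 909 and 942 FPKM in PN (log2 change 0.05, 95% interval -0.29 to 0.39), and Cox6c, of cytochrome oxidase, averaged 1023 ± 189 FPKM in D8 and 1051 ± 549 FPKM in PN (log2 change 0.07, 95% interval -0.66 to 0.79). Of 24 glycolysis and glucose transport genes, 9 were higher, 2 lower and 9 within 2-fold (median 0.32). Without PN replicate 3, and likewise at an equal total, 4 were lower. The lactate exporter Slc16a3 averaged 26.2 ± 8.78 FPKM in D8 and 0.352 ± 0.396 FPKM in PN (log2 change 4.31 ± 0.28, adjusted p = 4.6e-09), the hexokinase Hk2 12.3 ± 7.05 FPKM in D8 and 0.953 ± 0.567 FPKM in PN (log2 change 2.69 ± 0.49, adjusted p = 1.9e-04) and the glucose transporter Slc2a1 38.6 ± 4.14 FPKM in D8 and 7.60 ± 3.73 FPKM in PN (log2 change 2.28 ± 0.24, adjusted p = 8.5e-07). The neuronal lactate importer Slc16a7 (log2 change -1.87 ± 0.17, adjusted p = 2.1e-07) and the brain aldolase Aldoc (log2 change -1.61 ± 0.34, adjusted p = 6.3e-04) were lower, while Ldha (log2 change 0.22, 95% interval -0.23 to 0.67) and Aldoa (log2 change 0.36, 95% interval -0.06 to 0.78) held within 2-fold.

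Of 15 genes often used as references, 4 were higher, 2 lower and 5 within 2-fold, beside 21.4% higher, 16.6% lower and 40.5% within 2-fold over all genes. Besides Actb and B2m, the lysosomal enzyme Gusb averaged 26.8 ± 4.41 FPKM in D8 and 1.60 ± 0.481 FPKM in PN (log2 change 3.42 ± 0.19, adjusted p = 1.1e-09), the ribosomal protein gene Rpl13a 2395 ± 438 FPKM in D8 and 828 ± 88.3 FPKM in PN (log2 change 1.52 ± 0.24, adjusted p = 4.4e-05) and the adaptor Ywhaz 121 ± 5.59 FPKM in D8 and 449.7 ± 41.0 FPKM in PN (log2 change -1.88 ± 0.14, adjusted p = 2.1e-08). Pgk1 (log2 change -0.06, 95% interval -0.42 to 0.30) and Sdha (log2 change 0.44, 95% interval 0.13 to 0.75) held within 2-fold. Of the 5 sex-linked genes, the Y-linked Eif2s3y and Uty were present in every library of both groups and held within 2-fold, and Xist, the RNA that silences an X chromosome in females, was lower (log2 change -1.08 ± 0.35, adjusted p = 0.0134), a call lost without D8 replicate 3.

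Median levels of the panneuronal, presynaptic and postsynaptic lists in D8 lay between those of D4 and D16. The median panneuronal gene stood at 2.46, 4.72, 5.24, 6.11 and 6.90 on the log2 scale of mean FPKM + 1 in D0, D4, D8, D16 and PN. The median presynaptic gene followed the same order, at 1.41, 3.42, 4.15, 4.58 and 6.18. Median levels of postsynaptic genes were 0.84, 1.48, 2.01, 2.38 and 4.49. These are descriptions, with members chosen by the filter on D8 and PN.

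Other lists took another course. Median neuropeptide levels were 0.34, 3.64, 4.14, 3.80 and 2.20 in the same order of groups, highest at D8. Lysosomal genes stood at 6.19, 6.89, 7.27, 7.67 and 4.802, so that D0 was already above PN. Cell cycle genes stood at 5.57, 3.21, 0.98, 1.03 and 2.67, and sterol genes at 4.96, 4.92, 4.39, 5.18 and 6.44. Median levels of both were lowest at D8.

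Single genes placed D8 differently along the course. Calca averaged 2791 ± 2032 FPKM in D4, 1054 ± 686 FPKM in D8 and 166 ± 109 FPKM in D16, so its mean was lower at each later time, and it averaged 0.978 ± 1.03 FPKM in PN. Gfap averaged 398 ± 42.5 FPKM in D4, 37.1 ± 5.22 FPKM in D8 and 4.22 ± 6.67 FPKM in D16, against 30.3 ± 11.3 FPKM in PN. Dcx stayed below 1 FPKM on average at each time, with 0.318 ± 0.103 FPKM in D16, against 132 ± 18.8 FPKM in PN. These levels have no test here, and the n is 3 libraries for each mean and SD.

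**Figure D5:**
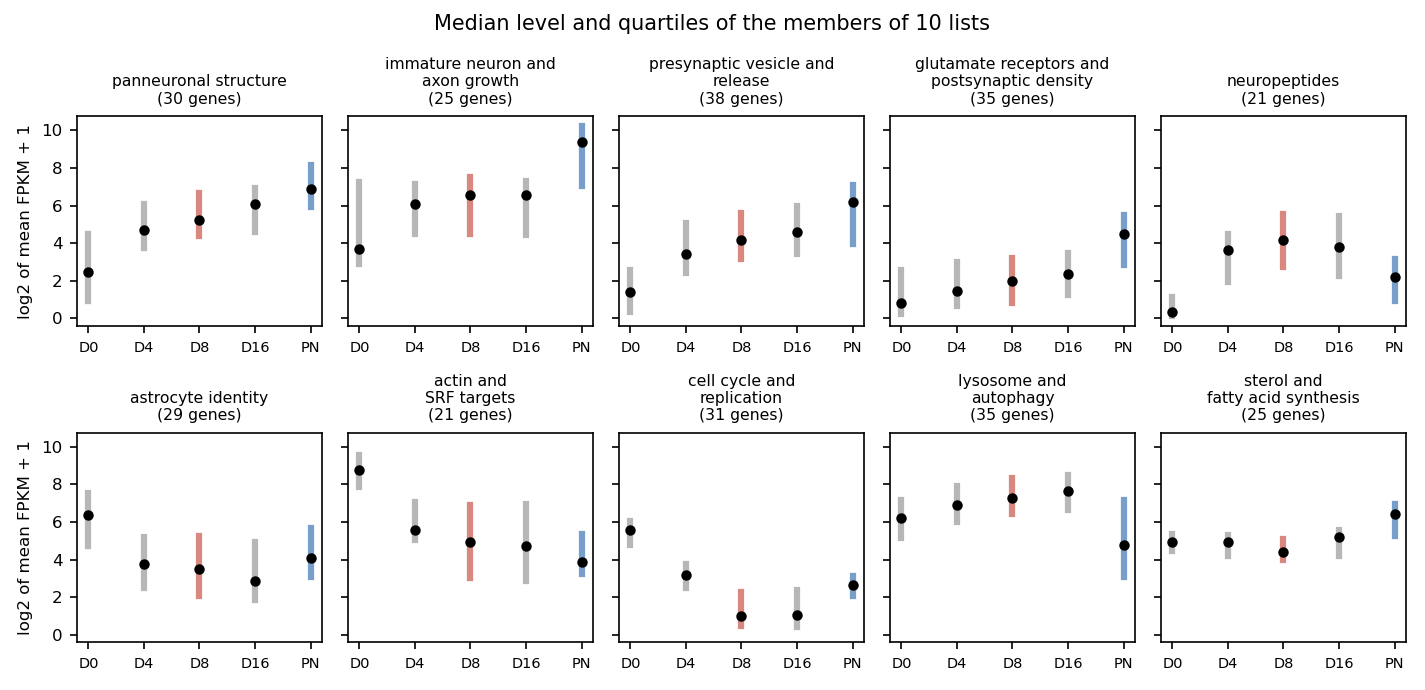
Median (black points) and quartile range (bars, D8 red and PN blue) of the mean level of tested members in 10 lists, as log2 of mean FPKM + 1 (vertical axis), in D0, D4, D8, D16 and PN. Panneuronal and presynaptic medians are higher in each later group and highest in PN, neuropeptide genes peak at 4.14 in D8, and lysosomal genes stand at 7.27 in D8 and 4.802 in PN.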

How the data were processed

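Total RNA of mouse brain cells was sequenced in 15 libraries, 3 in each of D0, D4, D8, D16 and PN, and the comparison used the 3 D8 and 3 PN libraries. The authors deposited 1 table of FPKM values per gene symbol. The genome build is mm10 (GRCm38), per the submitters' processing notes, and the aligner, the quantifier and the gene annotation are not given in the sources used here. FPKM values are not counts, so no count model was used, and the absolute depth is unknown. Depth relative to D8 replicate 1 was read from low values, of which 30.2% to 49.8% lay near whole-number ratios between libraries, against 8.24% for an even spread, so whole reads were not recovered. The FPKM total was 597084 to 787080 in D8 and 548309 to 619212 in PN.

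Genes at 1 FPKM or more in at least 3 of the 6 libraries were fitted as log2(FPKM + 1) in limma 3.58.1 (R 4.3.3), with 1 mean per group over all 15 libraries, 10 residual degrees of freedom and a variance trend. P-values were adjusted by Benjamini-Hochberg over 13002 genes. The procedure was tested on simulated data. Members and lists were chosen with earlier results of these data known, so no list was tested as a set. Genes were named by a rule: the 10 largest called changes in each direction without overlap and with 5 FPKM or more in the higher group, up to 3 called genes per direction and 2 genes within 2-fold from each list, and a marker panel. Predicted genes, pseudogenes and small RNAs were not named (246 of the called genes), and some genes that meet the rule are not reported here. Positions come from GENCODE M21 (GRCm38). Alternatives covered the pseudocount, filters, scaling, the fit, the replicate block, the minimum change and each library left out in turn.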

Additional observations from a re-analysis of the deposited data

How the results depend on the processing

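With 4941 genes called between D8 and PN, the count ranged from 4821 to 5127 when each library was left out in turn. Without a minimum change, 8483 genes were called, 4614 higher and 3869 lower, since that rule admits smaller changes. With no filter, 10175 of 18631 genes lay within 2-fold, since more genes were then tested. Scaling moved the balance: 2299 genes were higher and 2694 lower at an equal total, 2555 and 2388 with median ratio scaling, and 2428 and 2383 with quantile normalization. At an equal total 90.1% of the calls were shared with the values as deposited. With the replicate block 4944 genes were called. The labels tie the numbers to no shared culture, and deviations of same-numbered libraries correlated at 0.156, 0.0421 and -0.0586, so the numbers only name libraries. Of 270 genes named by the rule and tested, 199 were called, 183 of them in each of the 17 alternatives that tested them, and no called value changed sign. The 5 FPKM filter left 26 of the 199 untested, and 164 were tested and called in all 17. The 16 that lost the call were Atp1b3, Ptbp3, Pou3f3, Cacna2d2, Mki67, Prelp, E2f1, Eomes, Gabarapl1, Kcnn1, Pdgfra, Rims2, Rorb, Sema5a, Srf and Xist. Genes below about 1 FPKM rest on few reads, and their changes are uncertain.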

Other observations

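Some gene families outside the lists were counted after their values had been seen, as a description with no test. Over all genes tested, 21.4% were higher in D8 and 16.6% lower. Clustered protocadherins, adhesion proteins that give neurons a surface identity, were lower in D8 in 12 of 12 tested alpha members, 12 of 19 beta members and 12 of 20 gamma members, and 1 gamma member was higher. Of the tested members, 6 alpha, 11 beta and 1 gamma members reached 1 FPKM in PN alone and passed the filter through that group. Of the members at 1 FPKM or more in all 6 libraries, 2 of 2 alpha, 2 of 5 beta and 7 of 14 gamma were lower. Alpha members share constant exons with each other, as do gamma members, so the assignment of their reads is uncertain. Tubulin genes were lower in 8 of 19 and higher in 3. Annexins, which bind membranes in the presence of calcium, were higher in 7 of 8, and receptors of the tumour necrosis factor family in 6 of 7. Collagens were higher in 12 of 20 and lower in 1, and 3 of the 20 reached 1 FPKM in D8 alone. Of the 6 collagens at 1 FPKM or more in all 6 libraries, none was called in either direction.

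Cytosolic ribosomal protein genes were higher in D8 in 25 of 80 cases and lower in none by limma's test, with a median log2 change of 0.83. That count depended on scale, with 10 higher and 1 lower at an equal total. Mitochondrial ribosomal protein genes lay within 2-fold in 61 of 77 cases (median 0.12), and proteasome subunits in 31 of 38 (median -0.09). Over all genes 40.5% lay within 2-fold, and 47.0% of genes at 1 FPKM or more in all 6 libraries, to which all these members belong. Histone cluster genes were higher in 26 of 33 tested members, 15 of which reached 1 FPKM in D8 alone, but their copies are near-identical and their transcripts often lack a poly(A) tail, so these values are uncertain.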
